A study of Mus musculus with 10 samples.

Results

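Complement components and their regulators were examined in single cells of the mouse hind limb, where *Grem1*-lineage cells of cartilage were set beside *Lepr*-lineage cells of bone. The 7 genes, *C1ra*, *C1s1*, *C3*, *C4b*, *Cd55*, *Cd59a* and *Cfd*, were chosen as named rows of both count tables, from the 29183 genes listed for both lineages. All mice were C57BL/6 and carried a TdTomato reporter that Cre recombinase switches on. In *Grem1-TdT* mice the Cre was the inducible *Grem1-creERT*, and the mice received tamoxifen chow for 2 weeks from 5 to 6 weeks of age. In *Lepr-TdT* mice of matched age the constitutive *Lepr-cre* was used, and the labels give no tamoxifen for them. A TdTomato-positive cell is therefore a cell that drives the Cre or descends from one, and need not express *Grem1* or *Lepr* itself. *Grem1*-lineage cells came from excised articular cartilage (AC) and growth plate (GP) and were sorted as live TdTomato-positive single cells. *Lepr*-lineage cells came from whole bones, and cells positive for CD45, Ter119 or CD31 were also gated out. There were 8 *Grem1-TdT* plates (1, 2 and 4 to 9) and 2 *Lepr-TdT* plates. Which plates hold AC or GP cells is not given in the labels, nor is the number of mice, so p-values measure the spread between plates, which may be technical. Tissue, digestion, gate and lineage cannot be told apart.

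Complement is a cascade of plasma and membrane proteins that tags microbes and debris for clearance and can lyse cells. In the classical pathway, C1q binds its target and activates the serine proteases C1r and C1s, which cleave C4 and then C2, and the resulting enzyme cleaves C3. In the alternative pathway, factor D (*Cfd*) cleaves factor B bound to C3b, and on the cell surface CD55 takes these enzymes apart and CD59 blocks the membrane attack complex. Although the liver makes most of the plasma proteins, chondrocytes, synovial fibroblasts and stromal cells also transcribe complement genes, and complement has been studied in joint degeneration.

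Of 930 wells, 844 passed the minimum of 350 genes. *Grem1*-lineage cells were split by the UMIs (unique molecular identifiers, counted molecules) of 4 genes that are not members. The 414 cells with more UMIs of *Clu*, *Cilp* and *1500015O10Rik* together than of *Cnmd* are called Clu-led, and the other 270 are called Cnmd-led. There were 160 *Lepr*-lineage cells. The median depth over the shared genes was 1217 UMIs per Clu-led cell, 2218.5 per Cnmd-led cell and 505 per *Lepr*-lineage cell, and the UMIs of each plate and group were summed (51229 to 106289 per sum). Levels of 6 chondrocyte markers were summed in CPM (UMIs scaled to 1000000 per library, with TMM factors over the 18 sums). They were 152000 to 227000 in Clu-led, 88500 to 133000 in Cnmd-led and 96.0 to 5200 in *Lepr*-lineage sums. *Cytl1* held most of the Clu-led level, at a mean of 161000 against 21700 CPM in Cnmd-led sums. *Comp* was also higher in Clu-led sums. *Col2a1* (16400 against 64800), *Acan* (2860 against 5830), *Col9a1* (865 against 4610) and *Col11a1* (3290 against 8100) were lower. For 4 marrow stroma markers the summed levels were 18.5 to 111 CPM in Clu-led, 0 to 52.0 in Cnmd-led and 20400 to 29200 in *Lepr*-lineage sums. *Esm1* was at 0 in both *Grem1*-lineage groups and *Col9a1* at 0 in *Lepr*-lineage cells. The summed levels thus separated the lineages. However, 1 *Lepr-TdT* plate held 360 *Cytl1*, 49 *Cilp* and 17 *Col2a1* UMIs, and the other held 0 of each. The source of this cartilage RNA was not tested. *Lepr*-lineage sums also held 3210 to 5550 CPM of 8 myeloid markers, with *C1qa*, *C1qc* and *Adgre1* at 0, against 0 to 3060 in Clu-led and 0 to 3460 in Cnmd-led sums. The part of myeloid RNA in each result was tested only by leaving out cells with at least 5 UMIs of these markers and *Fcnb* (20 *Lepr*-lineage, 4 Clu-led and 7 Cnmd-led cells), and log2 fold changes without them are given for *C1ra*, *C1s1*, *C3* and *C4b*. Fibroblast and synovium markers were higher in Clu-led sums, whereas osteoblast markers varied widely between plates and overlapped in all 3 groups. Summed levels of 3 fibroblast and synovium markers were 17800 to 29000 CPM in Clu-led and 1510 to 2740 in Cnmd-led sums. In *Lepr*-lineage sums they were 686 to 2340, with *Dpt* at 0. Most of this was *Dcn*, at means of 22400, 1770 and 1510 CPM in this order. *Dpt* averaged 123 in Clu-led and 7.21 in Cnmd-led sums, and *Cd34* 12.2 and 6.16. Summed levels of 4 osteoblast markers were 151 to 41300 CPM in Clu-led, 447 to 17400 in Cnmd-led and 727 to 7220 in *Lepr*-lineage sums.

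The members lie on 5 chromosomes of GRCm38. *C1ra* (chr6:124512405-124523443, plus strand) and *C1s1* (chr6:124530345-124542359, minus strand) are neighbours that point at each other across 6901 bases. *C3* (chr17:57203970-57228136) and *C4b* (chr17:34728380-34743882) are both on the minus strand of chromosome 17. *Cd55* lies on chromosome 1 (chr1:130439027-130462744, minus strand), *Cd59a* on chromosome 2 (chr2:104095801-104115354, plus strand) and *Cfd* on chromosome 10 (chr10:79890853-79892655, plus strand). RefSeq promoter windows of build GRCm38.p6 were found for 6 members, not for *C4b*. The 250 bases before the start of *C3* and *C1s1*, members that were higher in *Lepr*-lineage cells, and of *Cd59a*, which was not, are shown with motif matches in capitals. These are the windows with a match. The window of *C1ra* is not shown because its RefSeq start differs from that of GENCODE, and no match was found in those of *C1ra*, *Cd55* and *Cfd*.
C3 (chr17:57228137-57228386, minus strand): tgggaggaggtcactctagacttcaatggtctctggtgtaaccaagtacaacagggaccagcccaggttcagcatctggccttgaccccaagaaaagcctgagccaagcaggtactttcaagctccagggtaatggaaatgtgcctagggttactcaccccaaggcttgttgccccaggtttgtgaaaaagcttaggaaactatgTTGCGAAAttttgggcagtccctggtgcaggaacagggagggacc
C1s1 (chr6:124542360-124542609, minus strand): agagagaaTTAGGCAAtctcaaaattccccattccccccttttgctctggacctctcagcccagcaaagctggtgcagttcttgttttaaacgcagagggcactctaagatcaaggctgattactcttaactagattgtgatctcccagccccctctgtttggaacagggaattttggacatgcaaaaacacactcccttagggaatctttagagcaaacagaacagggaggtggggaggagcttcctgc
Cd59a (chr2:104095551-104095800, plus strand): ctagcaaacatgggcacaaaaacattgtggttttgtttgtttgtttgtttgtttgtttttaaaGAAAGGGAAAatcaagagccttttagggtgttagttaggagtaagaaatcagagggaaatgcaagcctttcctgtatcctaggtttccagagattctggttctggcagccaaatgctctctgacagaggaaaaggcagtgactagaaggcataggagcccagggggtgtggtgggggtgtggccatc
In *C3* the capitals mark TTGCNNAA, a C/EBP-type pattern, 45 to 38 bases before the start on the gene strand. In *C1s1* they mark the same pattern read on the other strand, 242 to 235 bases before the start. It was present on either strand in 9.55% of 27025 promoters of this length. In *Cd59a* the capitals mark an interferon response pattern, a pair of GAAA runs 2 bases apart, 187 to 178 bases before the start. It was present in 3.04% of promoters. The TATA box (TATAAA), the CCAAT box (CCAAT), the STAT pattern (TTCNNNGAA) and an NF-kB pattern were also searched on both strands, and none was in these 3 windows. A match is a run of letters and not a measured site.

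The initiating proteases differed between the lineages. *C1ra*, the mouse C1r protease gene, measured 251 and 357 CPM on the 2 *Lepr-TdT* plates (20 and 26 UMIs). In Clu-led sums of the 8 *Grem1-TdT* plates it ranged from 18 to 72.6 CPM with a median of 47.4, and in Cnmd-led sums from 0 to 17.3 with a median of 0. Both *Lepr-TdT* plates therefore lay above all *Grem1*-lineage sums, and medians fell in the order *Lepr*-lineage, Clu-led, Cnmd-led. The lowest Clu-led sum (18 CPM) and the highest Cnmd-led sum (17.3 CPM) each held 1 UMI. The ranges of these 2 groups thus nearly met at this depth, although within each of the 8 plates Clu-led cells were higher. Over whole plates *C1ra* was 287 ± 63.8 CPM in *Lepr*-lineage cells (SD, n = 2) and 22.2 ± 8.71 in all *Grem1*-lineage cells (SD, n = 8), a log2 fold change of 3.66 (95% interval 2.87 to 4.45, edgeR adjusted p = 7.5e-06). It was higher than in Clu-led cells by 2.67 (interval 1.89 to 3.45, edgeR adjusted p = 0.00014) and than in Cnmd-led cells by 5.70 (interval 4.51 to 6.89, edgeR adjusted p = 7.1e-06), both on the log2 scale.

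*C1s1*, the gene of the C1s protease that C1r activates, followed the same order. Its levels on the *Lepr-TdT* plates were 125 and 151 CPM (10 and 11 UMIs). Clu-led sums ranged from 0 to 54.9 CPM with a median of 36.0, and Cnmd-led sums from 0 to 14.4 with a median of 0. Clu-led plate 5 had no *C1s1* UMI, so the *Grem1*-lineage groups overlapped with each other, whereas both *Lepr-TdT* plates lay above all *Grem1-TdT* plates. The log2 fold change of *Lepr*- over all *Grem1*-lineage cells was 2.93 (interval 1.89 to 3.96, edgeR adjusted p = 0.00065), and over Cnmd-led cells it was 4.99 (interval 3.67 to 6.31, edgeR adjusted p = 5.4e-05). Against Clu-led cells *C1s1* did not pass the filter on low counts. Without that filter its log2 fold change was 1.93 (edgeR adjusted p = 0.049).

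Within the *Grem1* lineage, both protease genes had more UMIs in Clu-led cells. *C1ra* had 21 UMIs in Clu-led and 3 in Cnmd-led cells, a ratio of levels of 10.5 with a counting interval of 3.15 to 55.2. It was higher in Clu-led cells on 8 of 8 plates (two-sided exact sign-flip permutation test of log2(CPM + 1), p = 0.00781, and 8 plates allow none below 0.0078). *C1s1* had 16 and 2 UMIs, a ratio of 12 (2.83 to 108) that was in this direction on 7 of 8 plates (exact permutation test, p = 0.0234). Neither gene passed the filter on low counts in this comparison. Without the filter, log2 fold changes were 3.01 for *C1ra* (edgeR adjusted p = 0.0022) and 3.02 for *C1s1* (edgeR adjusted p = 0.0097). The ratio for *C1ra* was 6.07 on plates 1, 2 and 4 and 19.4 on plates 5 to 9. Leaving out plate 5 raised the ratio for *C1s1* to 23.5, and leaving out plate 4 raised it to 19.3. Clu-led sums also held more RNA of the 3 fibroblast and synovium markers, at 17800 to 29000 against 1510 to 2740 CPM. Most of this RNA was *Dcn*, and the part of these markers in the difference of the proteases was not tested.

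*C3*, the central component on which all pathways converge, showed the widest gap between the lineages among the members. The *Lepr-TdT* plates measured 338 and 398 CPM (27 and 29 UMIs). Clu-led sums ranged from 0 to 32.6 CPM with a median of 7.87 and held 5 UMIs in all, and 7 of 8 Cnmd-led sums were at 0, the other holding 2 UMIs at 18.3 CPM. Thus the *Lepr-TdT* plates stood apart from every *Grem1-TdT* plate, and the *Grem1*-lineage groups overlapped. The log2 fold change was 5.58 over all *Grem1*-lineage cells (interval 4.44 to 6.72, edgeR adjusted p = 4.2e-06), 4.84 over Clu-led cells (interval 3.67 to 6.01, edgeR adjusted p = 3.2e-05) and 6.41 over Cnmd-led cells (interval 5.17 to 7.65, edgeR adjusted p = 3.3e-06). The last became 7.93 without *Grem1-TdT* plate 9 and 8.11 without cells with at least 5 myeloid UMIs, values that depend on the prior count because no Cnmd-led UMI is left in either. Between Clu-led and Cnmd-led cells the ratio of *C3* levels was 3.76 with a counting interval of 0.616 to 39.5, which was not distinguishable at this depth (exact permutation test, p = 0.25).

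In total, 5 of 7 members passed the filter between the lineages and 3 of them were higher in *Lepr*-lineage cells, with none lower. Of all 2944 genes tested, 28.9% were called, 12.2% higher and 16.7% lower, with a median log2 fold change of -0.11. Against Clu-led cells 2 of the 3 members tested were higher, where 37.9% of 1584 genes were called, 17.3% higher and 20.6% lower. Against Cnmd-led cells 3 of the 4 members tested were higher, where 33.1% of 1945 genes were called, 16.2% higher and 16.9% lower. *C1ra*, *C1s1* and *C3* passed the filter by their *Lepr*-lineage counts, so these counts of members are a description. *Lepr*-lineage cells with at least 5 myeloid UMIs held 8 of 46 *C1ra*, 4 of 21 *C1s1* and 15 of 56 *C3* UMIs. Without such cells the log2 fold changes between the lineages were 4.06, 3.29 and 6.45 (edgeR adjusted p = 1.7e-06, 0.00034 and 7.7e-07).

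**Figure D1:**
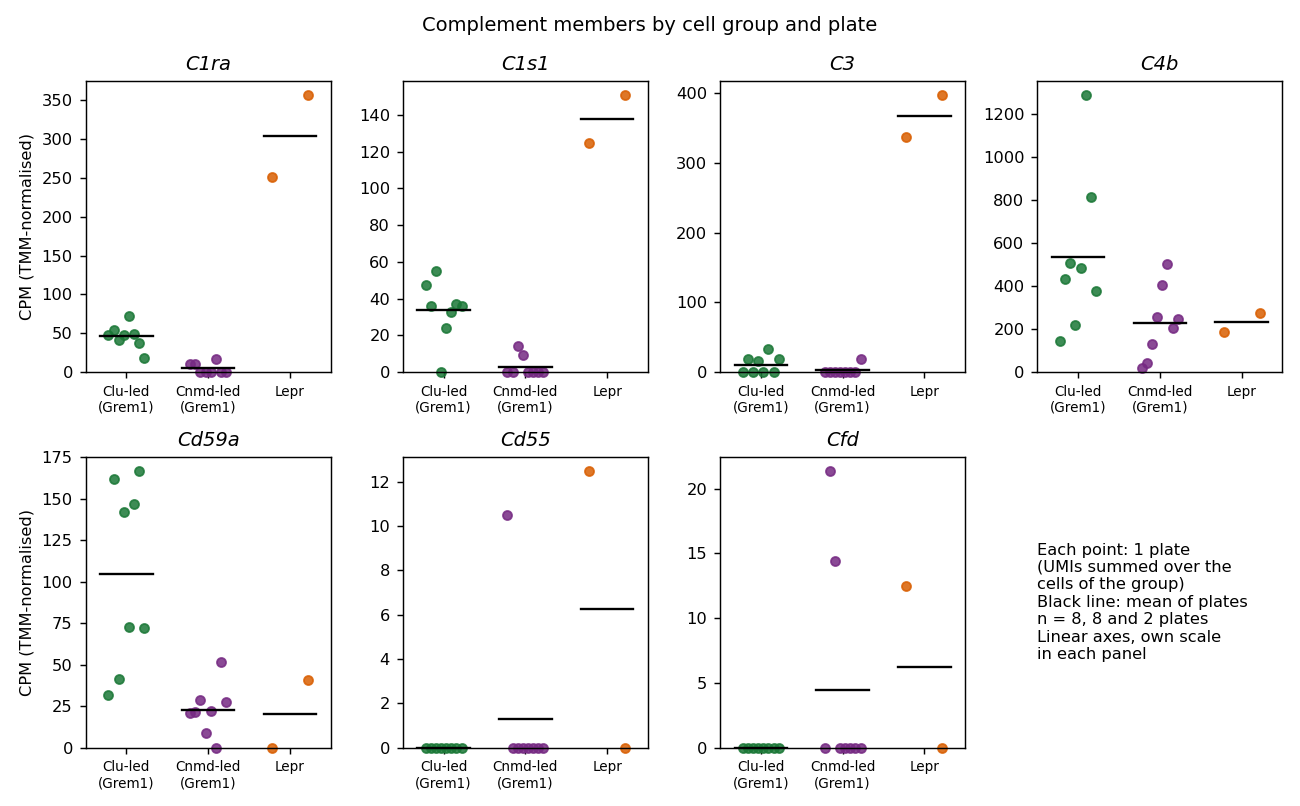
Levels of the 7 members (CPM, linear axes with a scale of their own) in Clu-led and Cnmd-led sums of 8 *Grem1-TdT* plates and in 2 *Lepr-TdT* plates. Points are plates and black lines are means. *C1ra*, *C1s1* and *C3* are highest on both *Lepr-TdT* plates, *C4b* overlaps in all 3 groups, and *Cd59a* is highest in Clu-led sums.

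*C4b* encodes the C4 that C1s cleaves, and it did not follow the proteases. Its levels on the *Lepr-TdT* plates were 188 and 274 CPM (15 and 20 UMIs). Clu-led sums ranged from 143 to 1290 CPM with a median of 459, and Cnmd-led sums from 21.0 to 503 with a median of 227. All 3 groups overlapped, with the highest level in Clu-led cells of plate 7 and the lowest in Cnmd-led cells of plate 1.

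Clu-led cells had more *C4b* than Cnmd-led cells, at 534 ± 366 against 227 ± 167 CPM (SD, n = 8 plates each), from 248 and 152 UMIs. The log2 fold change was 1.32 (interval 0.42 to 2.23, edgeR adjusted p = 0.026). It was the only member that passed the filter in this comparison, in which 41.0% of 1071 genes were called, 20.9% higher and 20.1% lower in Clu-led cells. Clu-led cells were higher on 7 of 8 plates, the exception being plate 5 with 220 against 255 CPM (exact permutation test, p = 0.0156). The call was lost without plate 2 (log2 fold change 1.20, edgeR adjusted p = 0.057), plate 4 (1.23, edgeR adjusted p = 0.069) or plate 8 (1.17, edgeR adjusted p = 0.078), and the direction held in each. Plates 1, 2 and 4 gave 21.0, 42.9 and 130 CPM in Cnmd-led cells and plates 5 to 9 gave 206 to 503, and the ratio of Clu-led to Cnmd-led levels was 6.29 on the former and 2.10 on the latter, against 2.46 on all plates. What sets these plates apart is not given in the labels. With the plate as a block, which the fits without a plate do not have, the log2 fold change was 1.29 (edgeR adjusted p = 0.0018), and without cells with at least 5 myeloid UMIs it was 1.27 (edgeR adjusted p = 0.028). The part of the fibroblast and synovium markers, which were mostly *Dcn* and higher in Clu-led sums, was not tested.

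Between the lineages *C4b* did not pass the test, with 218 ± 52.4 CPM (SD, n = 2) in *Lepr*- and 382 ± 263 (SD, n = 8) in *Grem1*-lineage cells and a log2 fold change of -0.79 (interval -2.05 to 0.47, edgeR adjusted p = 0.37). With plates 1, 2 and 4 as the *Grem1*-lineage plates the direction turned (0.13, edgeR adjusted p = 0.89). The difference was -1.22 from Clu-led cells (interval -2.44 to -0.01, edgeR adjusted p = 0.13) and 0.03 from Cnmd-led cells (interval -1.38 to 1.44, edgeR adjusted p = 0.98). Without the filter on low counts the former passed the threshold (edgeR adjusted p = 0.0498). On plates 1 and 2 of each lineage alone, *C4b* was higher in *Lepr*-lineage than in Cnmd-led cells by 2.77 (edgeR adjusted p = 0.0099), or by 2.79 with the number as a block (edgeR adjusted p = 0.022), although plates of the lineages share only a number. Without cells with at least 5 myeloid UMIs the differences were -0.42 between the lineages, -0.74 from Clu-led and 0.42 from Cnmd-led cells, and none passed the test (edgeR adjusted p = 0.68, 0.37 and 0.71). The placing of *Lepr*-lineage *C4b* between the groups thus depended on the *Grem1-TdT* plates used.

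*C4b* UMIs were unevenly spread among cells. The highest count in a cell was 16 UMIs in Clu-led, 9 in Cnmd-led and 3 in *Lepr*-lineage cells. Of the 248 Clu-led UMIs, 97 were in 11 cells with at least 5, and of the 152 Cnmd-led UMIs, 37 were in 5 such cells. *C4a*, a near copy on the same chromosome, had 18 UMIs in Clu-led, 16 in Cnmd-led and 3 in *Lepr*-lineage cells. In *Grem1*-lineage cells these were found only beside *C4b*, in 15 of 101 Clu-led and 12 of 84 Cnmd-led cells with *C4b*, and in none of the 313 and 186 cells without it. Of 58-base windows, the length of the sequenced read, 30.7% along the longest coding *C4b* transcript also occur in *C4a* transcripts, and 33.4% of those in its last 500 bases do, so counts of the pair are uncertain. With *C4a* and *C4b* added together, the log2 fold change of Clu-led over Cnmd-led cells was 1.28 (edgeR adjusted p = 0.035). *C1ra* shares 45.0% of its windows with *C1rb*, which had 7 UMIs in *Lepr*-lineage cells and 0 in *Grem1*-lineage cells, and *C1s1* shares 20.5% with *C1s2*. Exons of *C1s1* and *Cd55* also overlap antisense genes (*Gm16567* and *Gm16083*), and the sources used here do not say whether counting used the strand.

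**Figure D2:**
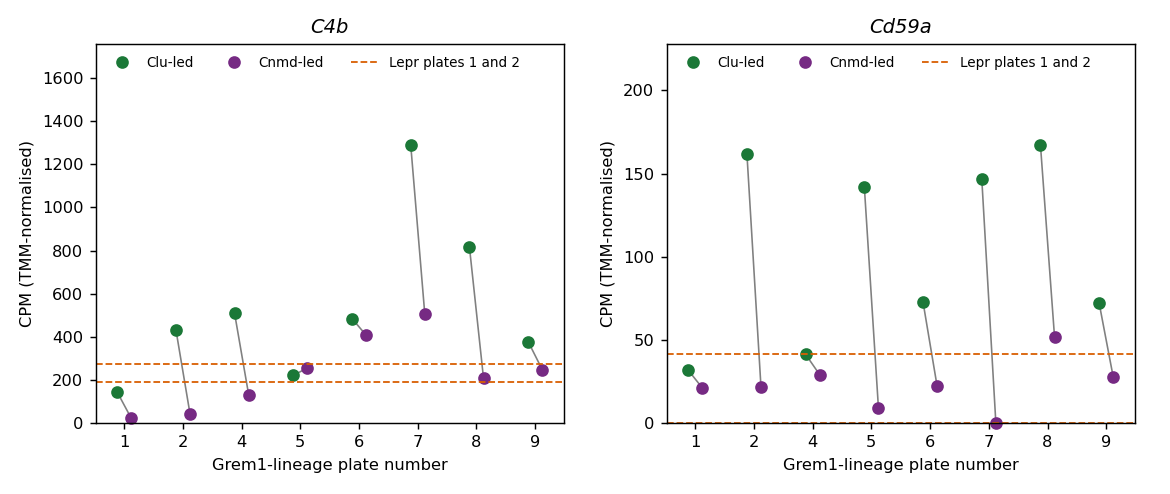
*C4b* (left) and *Cd59a* (right) levels in CPM on each *Grem1-TdT* plate, with a grey line joining the Clu-led and Cnmd-led cells of a plate and dashed lines for the 2 *Lepr-TdT* plates. *C4b* is higher in Clu-led cells on 7 of 8 plates and *Cd59a* on 8 of 8.

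Over the 18 sums and 2590 genes with a mean of at least 50 CPM, the genes most like *C4b* were *Gm5113* (Pearson r = 0.88 of log2(CPM + 1)), *Glg1* (r = 0.83) and *Brd2* (r = 0.83). The sums share plates and depth, so these values are a description.

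Of the members that act at the cell surface, *Cd59a* and *Cd55*, *Cd59a* alone had more than 1 UMI in a group. It encodes a membrane-anchored inhibitor of the attack complex. Clu-led sums ranged from 31.7 to 167 CPM with a median of 107, Cnmd-led sums from 0 to 51.5 with a median of 21.7, and the *Lepr-TdT* plates were at 0 and 41.1. The groups overlapped across plates, but within each plate the Clu-led cells were higher.

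From 48 and 16 UMIs, the *Cd59a* ratio of Clu-led to Cnmd-led levels was 4.52 (counting interval 2.52 to 8.52), in the same direction on 8 of 8 plates (exact permutation test, p = 0.00781). It did not pass the filter there. Without it the log2 fold change was 2.17 (edgeR adjusted p = 0.00012). Leaving out any 1 plate gave ratios of 3.82 to 5.17. As for the proteases, the part of the fibroblast and synovium markers was not tested. Between the lineages the level was 19.1 ± 27.1 CPM (SD, n = 2) in *Lepr*- and 59.0 ± 26.8 (SD, n = 8) in *Grem1*-lineage cells, a log2 fold change of -1.59 that missed the threshold (interval -3.28 to 0.10, edgeR adjusted p = 0.18). This value rested on few UMIs, and became -0.69 without *Lepr-TdT* plate 1, -5.98 without plate 2 and -2.75 with the gene minimum over the shared genes, none past the threshold (edgeR adjusted p = 0.59, 0.057 and 0.059), the second with no *Lepr*-lineage UMI left. The 3 *Lepr*-lineage UMIs equal the limit that a count of 0 allows. Its copy *Cd59b* had 16 UMIs in each *Grem1*-lineage group (ratio 1.51, counting interval 0.705 to 3.21), and none of the last 500 bases of *Cd59a* is shared with it as a window of read length.

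*Cd55*, which speeds the decay of the enzymes that cleave C3, and *Cfd*, the factor D gene known also as adipsin of fat cells, were at the edge of detection. *Cd55* had 0 UMIs in Clu-led, 1 in Cnmd-led and 1 in *Lepr*-lineage cells, and *Cfd* had 0, 3 and 1. A count of 0 in 414 Clu-led cells allows a share of up to 0.887% of cells with a UMI (95% Clopper-Pearson interval, counting error only). No difference in these genes could be detected at this depth. Although 143 of 160 *Lepr*-lineage cells held a UMI of *Adipoq*, the adiponectin gene, the 1 *Cfd* UMI was in a cell without it.

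Shares of cells with a UMI were compared after thinning each cell to 529 UMIs, which left out 83 shallow *Lepr*-lineage cells and 1 in each other group. *C1ra* was then found in 22.1% of *Lepr*-lineage cells (95% Clopper-Pearson interval 13.4 to 33.0), 1.21% of Clu-led (0.394 to 2.80) and 0.743% of Cnmd-led cells (0.0902 to 2.66). *C3* was found in 10.4% (4.59 to 19.4), 0.484% (0.0587 to 1.74) and 0% (up to 1.36). *C4b* was found in 14.3% (7.35 to 24.1), 15.5% (12.1 to 19.4) and 13.0% (9.23 to 17.6), intervals that overlap. At equal depth the share of cells with *C4b* could not be distinguished between the groups. Without thinning, *C4b* was in 24.4% of Clu-led, 31.1% of Cnmd-led and 18.8% of *Lepr*-lineage cells, and the median depths of 1217, 2218.5 and 505 UMIs differ between these groups. *C3* was in 21.2% of all 160 *Lepr*-lineage, 1.21% of Clu-led and 0.37% of Cnmd-led cells without thinning. For *Lepr*-lineage cells this lies above the thinned interval, so their share with *C3* depended on the thinning. *Cd59a* was in 3.15% of thinned Clu-led cells (1.69 to 5.32), 0.743% of Cnmd-led cells (0.0902 to 2.66) and 0% of *Lepr*-lineage cells (up to 4.68).

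**Figure D3:**
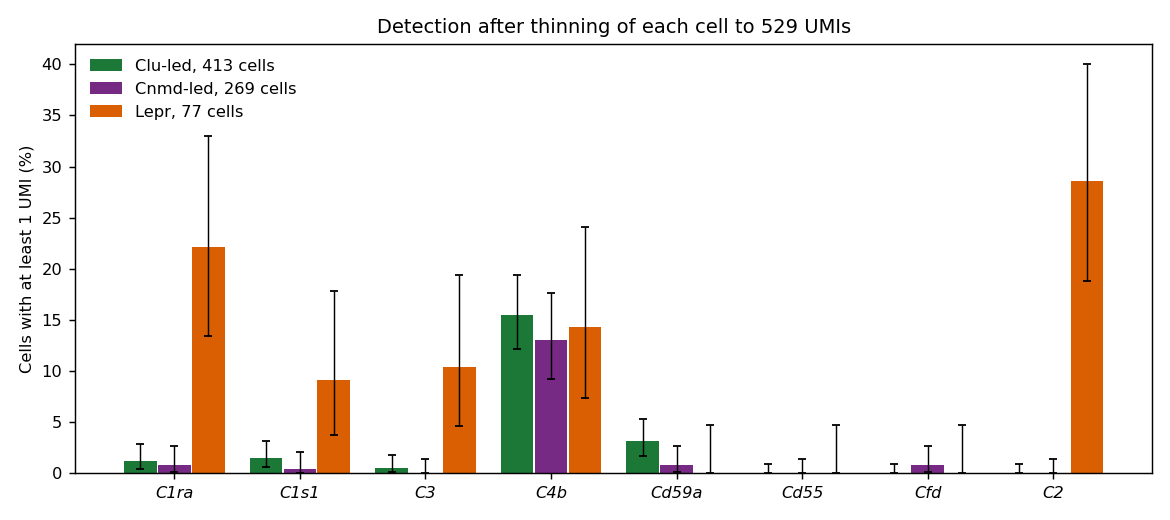
Share of cells with at least 1 UMI (%) for the members and for *C2*, after each cell was thinned to 529 UMIs, in 413 Clu-led, 269 Cnmd-led and 77 *Lepr*-lineage cells. Bars start at 0 and lines are 95% Clopper-Pearson intervals, and *C4b* is the member with overlapping intervals near 13.0 to 15.5% in all 3 groups.

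At full depth, 52.5% of *Lepr*-lineage cells held a UMI of any member, against 35.5% of Clu-led and 37.8% of Cnmd-led cells. The most members in one cell were 4, 3 and 2. Among *Lepr*-lineage cells, *C3* was found in 12 of 36 cells with *C1ra* and in 22 of 124 without it, and *C4b* in 12 of 36 and 18 of 124. *C1s1* was found in 4 of 36 and 15 of 124, shares of 11.1% and 12.1%. Cells with *C1ra* were deeper (a median of 550.5 against 478 UMIs), and cells were not treated as replicates. Of the 34 *Lepr*-lineage cells with *C3*, 33 held *Adipoq*, as did 110 of the 126 without *C3*. In Clu-led cells *C4b* was in 10 of 19 cells with *C1ra* and in 91 of 395 without it. The former were deeper (a median of 1417 against 1216 UMIs). With *Cd59a* in place of *C1ra*, *C4b* was in 9 of 34 Clu-led cells and in 92 of 380 without it, shares of 26.5% and 24.2%.

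Of 53 other complement genes examined, 40 are in both tables, and 11 of these had no UMI in any group. Between the lineages 8 were tested, 2 were higher and 1 lower in *Lepr*-lineage cells, beside 12.2% higher and 16.7% lower of all genes tested. *C2* and *Cd93* passed the filter on low counts largely by their *Lepr*-lineage counts, so the counts for this list are a description. *C2*, which C1s cleaves after C4, measured 276 and 453 CPM on the *Lepr-TdT* plates, while 7 of 8 Clu-led and 6 of 8 Cnmd-led sums were at 0. Its log2 fold change was 5.98 (interval 4.80 to 7.15, edgeR adjusted p = 2.9e-06). *Cd93*, a receptor gene of endothelial and myeloid cells, was the other that rose (2.51, edgeR adjusted p = 0.044), and 11 of its 16 *Lepr*-lineage UMIs were in cells with at least 5 myeloid UMIs. *Clu*, which encodes clusterin, an inhibitor of the attack complex, was lower at 2180 ± 153 (SD, n = 2) against 8620 ± 3540 CPM (SD, n = 8), a log2 fold change of -1.99 (edgeR adjusted p = 0.0039), and it is a gene of the split.

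Against Clu-led cells 6 of the list were tested, 2 were higher (*C2* and *Fcnb*) and 1 lower (*Clu*), beside 17.3% and 20.6% of all genes tested. *Fcnb*, a ficolin gene of myeloid cells, had a log2 fold change of 2.77 (edgeR adjusted p = 0.021). It passed the filter on low counts largely by its *Lepr*-lineage counts. *Fcnb* was not called between the lineages (2.33, edgeR adjusted p = 0.11) or against Cnmd-led cells (2.27, edgeR adjusted p = 0.16). Of its 36 *Lepr*-lineage UMIs, 26 were in cells with at least 5 myeloid UMIs. *Fcnb* itself counts towards these UMIs, and 23 of the 36 were in 3 cells with at least 5 *Fcnb* UMIs. This overlap is therefore partly set by the definition. Against Cnmd-led cells 6 were tested and 2 were higher (*C2* and *Clu*), beside 16.2% of all genes tested. *Clu* is a gene of the split, so its calls against Clu-led and Cnmd-led cells are shaped by how these groups were made. Between Clu-led and Cnmd-led cells 2 were tested and 1 was higher, beside 20.9%. *Colec12*, a scavenger receptor gene of the collectin family, was higher in Clu-led cells by 0.80 on the log2 scale (interval 0.31 to 1.29, edgeR adjusted p = 0.015), at 431 ± 213 against 264 ± 73.5 CPM (SD, n = 8). *C1qbp*, named for C1q binding, was at -0.02 (interval -0.50 to 0.47, edgeR adjusted p = 0.96). *Cr1l*, a complement regulator of the membrane, had 84 Clu-led, 72 Cnmd-led and 22 *Lepr*-lineage UMIs and a log2 fold change between the lineages of -0.03 (interval -0.76 to 0.69, edgeR adjusted p = 0.96). Clu-led sums averaged 181 CPM of *Cr1l* and Cnmd-led sums 96.5, but it did not pass the filter between these groups. Without the filter its log2 fold change there was 0.90 (edgeR adjusted p = 0.049). *Cfp*, the properdin gene, missed the threshold between the lineages (1.96, edgeR adjusted p = 0.074).

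**Figure D4:**
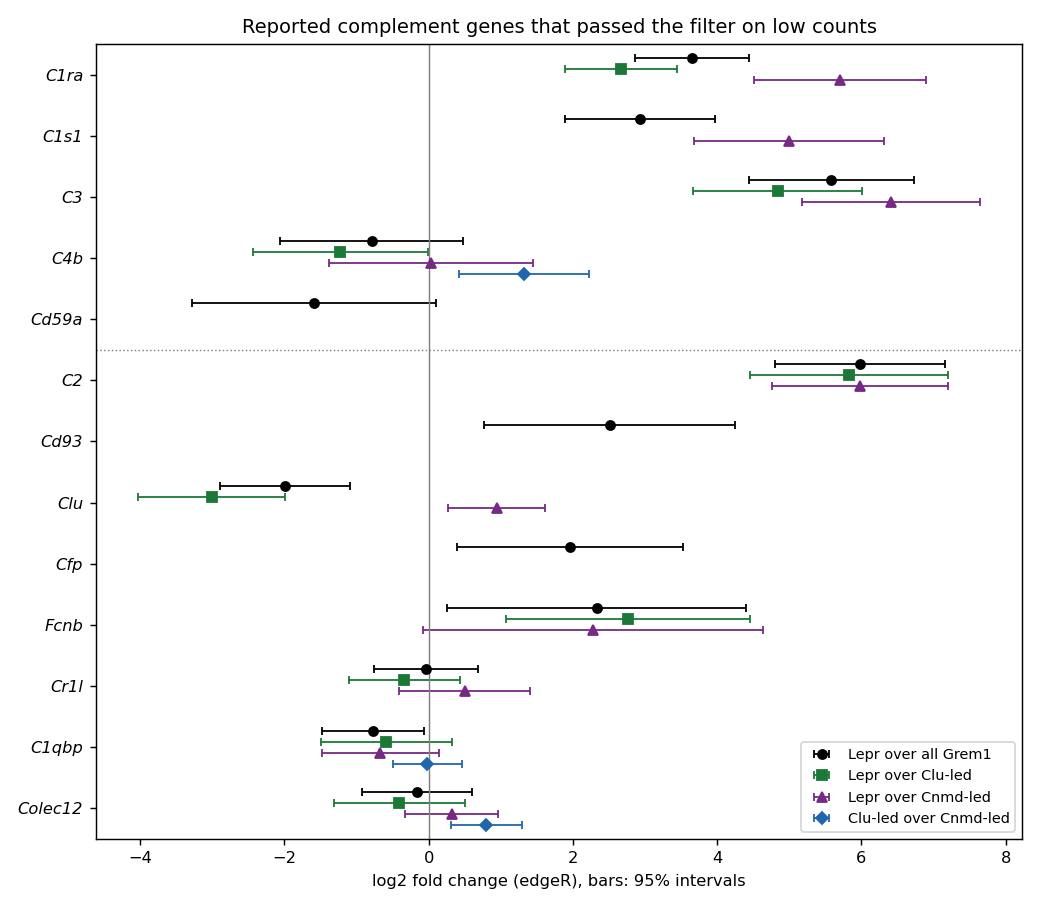
Log2 fold changes from edgeR for the complement genes reported here that passed the filter on low counts, with members above the dotted line and other genes below. Bars are 95% intervals, a missing symbol means not tested, and *Clu* is a gene of the split. *C1ra*, *C1s1*, *C3* and *C2* lie to the right of 0 wherever *Lepr*-lineage cells are the first group, and *C4b* lies near or left of 0 there and at 1.32 for Clu-led over Cnmd-led.

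The subunits of C1q, to which C1r and C1s bind, had few UMIs. *C1qa*, *C1qb* and *C1qc* had 0, 0 and 3 UMIs in Clu-led cells and 6, 2 and 8 in Cnmd-led cells, of which 2 in Clu-led and 6, 2 and 7 in Cnmd-led cells were in cells with at least 5 myeloid UMIs. *Lepr*-lineage cells had 0, 1 and 0. The C1q genes are themselves among the myeloid markers, and the highest counts in a Cnmd-led cell were 6 *C1qa* and 7 *C1qc* UMIs. Their place in cells with at least 5 myeloid UMIs is therefore partly set by the definition of these cells.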

How the data were processed

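Single cell UMI counts of 8 *Grem1-TdT* and 2 *Lepr-TdT* plates were analysed, with plates assigned from the sample labels. The authors deposited raw UMI counts, as whole numbers for each gene in each cell. The submitters' processing notes name UMI-tools, STAR, featureCounts, SAMtools, Seurat and mm10 without roles, and versions are not given in the sources used here. The *Grem1*-lineage table ends in 1 incomplete row, which was left out. It holds 29183 complete rows against 50508 genes for *Lepr*-lineage cells, so the other genes were not analysed here in *Grem1*-lineage cells, and the shared genes held 64310 of 158749 UMIs on *Lepr-TdT* plate 1 and 59981 of 145484 on plate 2. Of the shared symbols, 97.2% matched GENCODE M21 (GRCm38). No doublet caller was run on these single-cell sorts. The 96 well barcodes recur across plates (70 on all 10) and are well indexes, so no cell is shared.

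Cells in which fewer than 350 genes of their own table were detected were left out. Sums of UMIs were made for each cell group on each plate (10 cells or more) and tested in R 4.3.3 with edgeR 4.0.16 (filterByExpr, TMM, quasi-likelihood test, Benjamini-Hochberg over all genes tested at 0.05), and DESeq2 1.42.0 was an alternative. The 4 genes of the split were not tested between Clu-led and Cnmd-led cells. Standard errors are the log2 fold change over the square root of F and are approximate. CPM by plate use 1 scaling of all 18 sums, and means beside a comparison of whole plates use that comparison's scaling. Ratios of summed levels have exact conditional binomial intervals, and these, like the shares, cover counting error only. The scripts were tested on simulated counts. The members and gene lists were chosen with earlier results of these data known. Named were the 7 members, and genes of the complement list that passed a test or held at least 20 UMIs in a group. Of the genes this rule names, 1 is not reported here. *C4a*, *C1rb*, *C1s2*, *Cd59b*, *Cfp* and the C1q genes were named after their values were seen. Clu-led and Cnmd-led cells of a plate share that plate and deviated together (mean correlation 0.27 across 1071 genes, range 0.14 to 0.42, over 0.1 for 8 of 8, against -0.04 between plates).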

Additional observations from a re-analysis of the deposited data

Results flagged for a closer look

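Signal of the members was also found in the 84 *Grem1*-lineage wells left out for fewer than 350 detected genes, which held 39804 UMIs with a median of 501.5 per well. *C4b* had 12 UMIs in 8 of these wells and *Cd59a* had 4 UMIs in 4 of them, both above the limit of 3 that a count of 0 allows. *C1ra* had 2 and *Cd55* 1, and the other members had 0.

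Genes listed for the *Lepr* lineage alone held complement signal that was not analysed here in *Grem1*-lineage cells. *Serping1*, which encodes the inhibitor of C1r and C1s, had 1082 UMIs in 154 of 160 cells, 382 on plate 1 and 700 on plate 2, or 2410 and 4810 CPM of all listed genes. The integrin genes *Itgam* and *Itgb2*, subunits of complement receptor 3 of myeloid cells, had 37 and 34 UMIs, and *Ptx3*, a pentraxin gene, had 19. These values were not compared with another group. Among 4 groups of member levels with at least 20 UMIs that were searched for a plate far from the others, 0 were found.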

How the results depend on the processing

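*C1ra*, *C1s1* and *C3* kept their direction and their side of the threshold against *Grem1*-lineage cells in every alternative that gave a value, among them DESeq2, its size factors, no filter, no gene minimum and each plate left out. *C4b* did not. Its log2 fold change of *Lepr*- over *Grem1*-lineage cells became 0.13 with plates 1, 2 and 4, and 0.81 and 0.73 with plates 1 and 2 of each lineage with and without the replicate block. Over Cnmd-led cells it became -0.27 with the gene minimum over the shared genes and -0.51 with plates 5 to 9, -0.29 to 0.25 with a plate left out, and 2.79 and 2.77 on plates 1 and 2 with and without the block. The plate as a block in Clu-led and Cnmd-led cells gave 1.29 for *C4b* and changed no call of a member. Leaving out a plate gave 1.17 to 1.52 there.

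Counts of genes called are given for the settings that moved them by over 1.5 times, and beside them the range with a plate left out. Between the lineages, 851 became 436 and 451 on plates 1 and 2 with and without the block, and 529 to 849 with a plate left out. For Clu-led against Cnmd-led cells, 439 became 701 without the filter and 235 on plates 1, 2 and 4, and 379 to 435 with a plate left out. For *Lepr*-lineage against Clu-led cells, 601 became 329 and 357 on plates 1 and 2 with and without the block, and 396 to 606 with a plate left out. Against Cnmd-led cells, 644 became 970 without the filter, 273 and 408 on plates 1 and 2 with and without the block, and 438 to 649 with a plate left out. The cause was not tested, and fits on plates 1 and 2 hold fewer samples. With 2 *Lepr-TdT* plates and few UMIs per member, depth limits *Cd55*, *Cfd* and *Cd59a* in the *Lepr* lineage. The alternatives on myeloid cells, on *C4a* with *C4b* and on ratios without TMM factors were chosen after seeing the data, and the last gave a *C4b* ratio of 2.01.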
